A study of Mus musculus with 24 samples.

Results

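Cytokine genes of the IL-6, IL-10 and IL-12 families and the colony-stimulating factors were followed through 24 RNA sequencing libraries of mouse macrophages grown from bone marrow. The members were taken by gene symbol, with the row on a numbered chromosome, and all 10 of 10 symbols (Il6, Il10, Il12a, Il12b, Il23a, Il27, Ebi3, Csf1, Csf2 and Csf3) were found among the 47372 genes of the deposited tables. The libraries came from 6 mice, each cultured under 4 treatments. Of the mice, 3 were labelled LXR positive and 3 were double knockouts of LXRα and LXRβ (DKO), the receptors for oxidized cholesterol derivatives, so there were 8 groups of 3 libraries. The strain is given as C57BL/6J, the mice were 8 to 12 weeks old, and all marrow cells grew in L929-conditioned medium, a source of macrophage colony-stimulating factor. On day 5 the cells received vehicle, KLA (Kdo2-lipid A, a defined form of endotoxin that signals through the Toll-like receptor TLR4) at 100 ng/ml, or GW3965 (a synthetic LXR agonist) at 1 µM, for 17 hours. AcLDL (acetylated low-density lipoprotein, which loads macrophages with cholesterol) was used at 50 µg/ml, for a time that the sources used here do not give. Libraries of the same number within a genotype are different treatments of cells from the same mouse, and the labels name no inducible or cell-specific system for the knockout.

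The members signal between immune cells. IL-6 acts through a receptor pair of Il6ra and the shared chain gp130 (Il6st) and drives acute inflammation, while IL-10 restrains macrophages through STAT3. The IL-12 family is built of paired chains that are made from separate genes: Il12a with Il12b gives IL-12, Il23a with Il12b gives IL-23, Il27 with Ebi3 gives IL-27, and Il12a with Ebi3 gives IL-35. Csf1 sustains macrophages, Csf2 acts on granulocytes, macrophages and dendritic cells, and Csf3 acts on neutrophils. TLR4 ligands are textbook inducers of Il6 and Il12b, through NF-κB, AP-1 and C/EBP factors.

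Values are the authors' normalized counts: reads per gene divided by a size factor of the library. Total reads ran from 6448579 to 17348717 in the LXR-positive libraries and from 9705391 to 27189081 in the DKO libraries, so that a single read was worth 0.45 to 2.03 normalized counts. The deeper DKO libraries give low genes a finer scale. Of the marker lists, the 8 macrophage genes summed to 130385 to 422093 in every library, lower in DKO than in LXR-positive cells under vehicle (165778 to 190417 against 213230 to 274109). Lyz2 made up most of that sum, at vehicle means of 117717 in DKO and 172803 in LXR-positive cells. Cd68 alone of the 8 had a higher mean in DKO cells (6052 against 4988). None of the 8 was called between genotypes under vehicle, where 0.316% of all genes were. The 8 neutrophil and precursor genes summed to 3379 to 3836 under vehicle in LXR-positive and 4903 to 6882 in DKO cells, and the 6 stromal genes to 84.3 to 879 and 249 to 4012. As a check of the labels, Abca1, an LXR target, was at 8200 to 9154 under vehicle and 35962 to 42061 under GW3965 in LXR-positive cells, against 14223 to 16732 and 14916 to 17074 in DKO cells. The receptor genes themselves, counted over whole genes, gave 438 to 821 (LXR-positive) and 275 to 399 (DKO) for Nr1h2, and ranges that overlapped for Nr1h3 (114 to 1267 and 123 to 751). The sources used here do not give the exons that the knockout removes, so the receptor counts check nothing for Nr1h3.

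The promoters of the KLA-responsive members are shown because these genes moved together. RefSeq's table for build GRCm38.p6 holds an entry for 6 of the 10 members (Il6, Il12a, Il12b, Ebi3, Csf1 and Csf2). Each line below gives the 250 bases before a transcription start, 5′ to 3′ on the gene's own strand, here plus for all 4. Capitals mark matches to the NF-κB consensus, the AP-1 site TGANTCA or the C/EBP half-site GCAAT on either strand, with the Il6 window at chr5:30012864-30013113, Il12b at chr11:44399813-44400062, Ebi3 at chr17:55952373-55952622 and the first of the Il12a starts at chr3:68690394-68690643.
Il6: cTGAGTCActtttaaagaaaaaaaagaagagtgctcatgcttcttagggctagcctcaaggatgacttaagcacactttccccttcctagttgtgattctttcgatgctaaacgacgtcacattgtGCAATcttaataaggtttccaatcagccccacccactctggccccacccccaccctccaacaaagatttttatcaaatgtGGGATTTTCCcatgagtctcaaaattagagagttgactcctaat
Il12b: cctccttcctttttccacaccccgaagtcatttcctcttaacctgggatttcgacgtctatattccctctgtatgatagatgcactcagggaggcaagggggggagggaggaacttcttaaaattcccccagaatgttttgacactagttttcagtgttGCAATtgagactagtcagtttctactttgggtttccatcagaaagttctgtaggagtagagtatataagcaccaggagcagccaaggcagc
Ebi3: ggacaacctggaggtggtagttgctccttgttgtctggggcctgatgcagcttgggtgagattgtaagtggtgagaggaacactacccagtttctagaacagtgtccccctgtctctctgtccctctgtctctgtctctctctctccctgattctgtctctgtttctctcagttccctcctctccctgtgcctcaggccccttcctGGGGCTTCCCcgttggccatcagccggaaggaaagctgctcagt
Il12a: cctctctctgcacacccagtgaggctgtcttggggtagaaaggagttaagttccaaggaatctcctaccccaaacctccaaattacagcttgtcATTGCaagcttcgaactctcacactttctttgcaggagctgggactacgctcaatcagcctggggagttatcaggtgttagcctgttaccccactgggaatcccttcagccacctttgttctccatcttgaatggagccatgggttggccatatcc
The NF-κB consensus was matched in Il6 and in Ebi3 at the same distance from the start (bases -44 to -35) and in Csf1 (-154 to -145). The AP-1 letters were matched in Il6 alone among the members with an entry (-249 to -243), and the C/EBP half-site in Il6 (-124 to -120), Il12b (-91 to -87) and Il12a (-156 to -152, on the minus strand). These motifs did not overlap each other in the printed windows. Of 32851 promoter windows of the same length, 7.25% held the NF-κB consensus, 6.75% the AP-1 letters and 23.1% the C/EBP half-site. Searches for TATAAA on the gene's strand (7.59% of all windows), for the interferon-stimulated response element (2.98%) and for the LXR element DR4, a direct repeat of the nuclear receptor half-site (0.0152%), on both strands, found no match in the members' windows. A match is a description of letters, not of a bound site.

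IL-6 was nearly silent without KLA and rose in both genotypes. Il6 (chr5:30013114-30019981, plus strand) stood at 0, 0.78 and 2.44 normalized counts in the LXR-positive vehicle libraries of mice 1, 2 and 3, and at 84.8, 77.9 and 56.2 with KLA. In DKO cells it stood at 0.97, 0 and 0.90 under vehicle and at 40.5, 53.6 and 41.6 with KLA. Every KLA library lay above every library without KLA, and the 3 LXR-positive KLA values lay above the 3 DKO ones. By reads, 154 against 3 gave a ratio of 72.2 in LXR-positive cells (exact 95% interval 24.2 to 354, counting error only), and 183 against 4 gave 66.3 in DKO cells (25.4 to 246). The fitted log2 change on the log2(value + 1) scale was 5.32 ± 0.48 (SE) in LXR-positive cells (limma, Benjamini-Hochberg adjusted p = 9.6e-06) and 4.89 ± 0.48 in DKO cells (limma, adjusted p = 1.8e-05), higher in 3 of 3 mice each. The pseudocount of 1 sets how large these changes of low genes come out: with a pseudocount of 8 they were 3.15 and 2.62, and DESeq2 on the recovered reads gave 6.13 and 6.07. The difference between genotypes under KLA was -0.67 ± 0.48 and did not pass (limma, adjusted p = 0.43); 15.0% of all genes lay apart downward there.

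**Figure D1:**
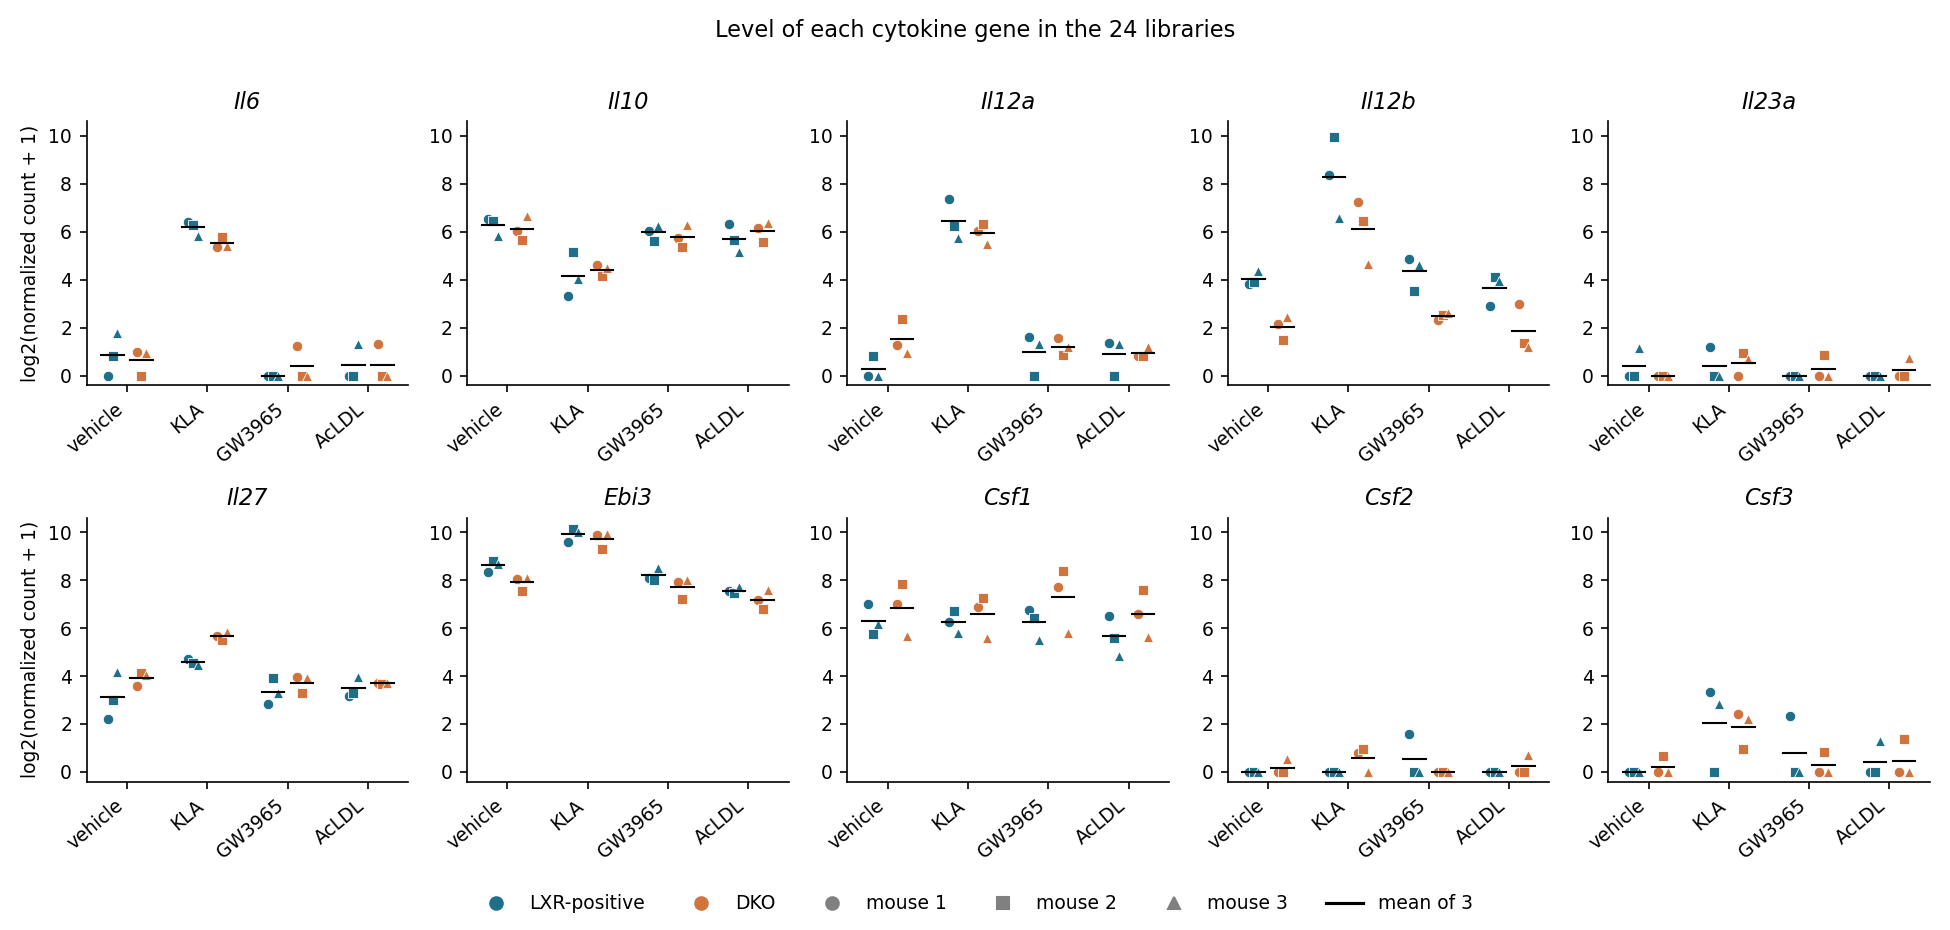
Level of each of the 10 members in all 24 libraries, as log2(normalized count + 1) by treatment; color gives the genotype, symbol shape the mouse, and black lines the mean of 3 libraries. Il6 and Il12a lie at no more than 2.44 and 4.15 normalized counts in the libraries without KLA and above 40 in those with it, and Il23a and Csf2 stay near 0.

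The chains of IL-12 rose with KLA in both genotypes, and their levels differed from mouse to mouse. Il12a (chr3:68690644-68698547, plus strand), which encodes the smaller chain, was at 0, 0.78 and 0 under vehicle and at 165.7, 74.9 and 53.1 with KLA in LXR-positive mice 1, 2 and 3. In DKO mice it was at 1.45, 4.15 and 0.90 under vehicle and at 64.7, 79.5 and 43.5 with KLA. The vehicle libraries thus differed in both genotypes from the KLA libraries without overlap, and the KLA values of the genotypes overlapped. The fitted change was 6.18 ± 0.52 in LXR-positive cells (limma, adjusted p = 5.1e-06) and 4.42 ± 0.52 in DKO cells (limma, adjusted p = 6.7e-05). The vehicle level of LXR-positive cells rested on 1 read against 212 with KLA, which gives a ratio of 298 with a wide exact 95% interval of 52.9 to 11832, and the DKO ratio, from 12 and 248 reads, was 29.9 (16.8 to 58.7). With a pseudocount of 8 the log2 changes were 3.54 and 2.77.

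Il12b (chr11:44400063-44414033, plus strand) encodes the larger chain, shared with IL-23, and was read in all 24 libraries. In LXR-positive cells it stood at 13.1, 14.01 and 19.6 under vehicle and at 324.9, 976.4 and 94.1 with KLA. In DKO cells it stood at 3.39, 1.78 and 4.51 under vehicle and at 149.3, 85.1 and 24.5 with KLA. Mouse 3 had the lowest KLA level in each genotype, and the KLA libraries lay above the vehicle libraries in both. The change was 4.26 ± 0.76 in LXR-positive cells (limma, adjusted p = 0.0013) and 4.09 ± 0.76 in DKO cells (limma, adjusted p = 0.0019). In DKO cells it was 2.81 with a pseudocount of 8 and 5.57 after thinning every library to 6448579 reads. Per kilobase of exon, the ratio of Il12b to Il12a was 1.53 to 11.3 in the LXR-positive KLA libraries. In the DKO KLA libraries it was 0.49 to 2.0, on both sides of equality. Those ranges of the chain ratio overlap.

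The chains of IL-27 also rose, from a higher level. Ebi3 (chr17:55952623-55957021, plus strand), the chain shared by IL-27 and IL-35, was the highest member per kilobase in every group. It stood at 324.8, 445.9 and 411.8 normalized counts under vehicle and 772.3, 1106.7 and 1036.7 with KLA in LXR-positive cells. The DKO libraries held 265.1, 186.9 and 272.8 under vehicle and 952.2, 619.5 and 970.3 with KLA. All KLA values lay above all vehicle values. The log2 change was 1.30 ± 0.22 in LXR-positive cells (limma, adjusted p = 8.2e-04) and 1.80 ± 0.22 in DKO cells (limma, adjusted p = 8.6e-05), and the 3 mice of each genotype agreed closely, with changes of 1.25 to 1.33 and 1.72 to 1.84. Il27 (chr7:126589010-126594941, minus strand), the partner chain, rose from 3.57, 7.004 and 17.1 to 24.8, 22.5 and 21.3 in LXR-positive cells, a change of 1.45 ± 0.42 (limma, adjusted p = 0.022). In DKO cells it rose from 11.1, 16.6 and 15.3 to 50.5, 44.4 and 56.3, a change of 1.75 ± 0.42 (limma, adjusted p = 0.0093). The LXR-positive vehicle values were the scattered ones, and without the vehicle library of mouse 1 that change fell to 0.98 and was not called (adjusted p = 0.076). It was also not called without the vehicle library of mouse 2 or the KLA library of mouse 1 (adjusted p = 0.058 each) or with the 6 compared libraries alone (0.10), and the DKO change was not called after thinning (0.053). Per kilobase, Ebi3 exceeded Il27 by 27.6 to 43.6 times in the LXR-positive KLA libraries and by 12.3 to 16.7 times in the DKO KLA libraries, ranges that do not overlap.

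Exons of Il27 and Ebi3 are shared with genes on the opposite strand, and the sources used here do not give the strand setting of the counting. Il27 shares 103 of its 1021 exon bases with Apobr, the apolipoprotein B receptor, which averaged 860 normalized counts. Apobr was at 703 ± 238 under vehicle and 474 ± 84.2 with KLA in LXR-positive cells (SD, n = 3) and at 1107 ± 87.4 and 920 ± 143 in DKO cells, so its mean was lower with KLA where that of Il27 was higher, though the Apobr changes of -0.53 and -0.28 were not called (limma, adjusted p = 0.089 and 0.40). Ebi3 shares 270 of 1154 bases with the antisense gene Gm16712, at 61.7 to 139 by group mean, whose changes with KLA of 0.23 and 0.54 were not called either (limma, adjusted p = 0.56 and 0.17). The part of these overlaps in the values of Il27 and Ebi3 was not tested.

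IL-10 went the other way. Il10 (chr1:131019845-131024974, plus strand) stood at 91.6, 85.6 and 56.2 under vehicle and at 9.13, 34.4 and 15.2 with KLA in LXR-positive cells. In DKO cells it stood at 64.8, 49.3 and 99.2 under vehicle and at 23.5, 16.6 and 21.4 with KLA. The KLA values lay below the vehicle values in both genotypes. The log2 change was -2.10 ± 0.42 in LXR-positive cells (limma, adjusted p = 0.0026) and -1.70 ± 0.42 in DKO cells (limma, adjusted p = 0.011), lower in 3 of 3 mice each. Markers of lymphocytes, which can make IL-10, were lower with KLA as well. Ighm, the heavy chain of IgM and a B-lineage gene, stood at 1106 ± 85.3 under vehicle and 59.8 ± 44.8 with KLA in LXR-positive cells, and at 1320 ± 180 and 433 ± 271 in DKO cells (SD, n = 3). Ighm fell in both genotypes, with log2 changes of -4.43 and -1.85 (limma, adjusted p = 6.9e-05 and 0.022). The 7 T and NK genes, mostly Cd4, summed to 310 to 389 and 178 to 282 under vehicle and to 62.9 to 125 and 68.3 to 101 with KLA. In bulk libraries fewer cells of a type and less RNA per cell cannot be told apart, and the part of these cells in the Il10 change was not tested.

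Of the colony-stimulating factors, Csf1 was not called with KLA, Csf3 had more reads with KLA at a low level, and Csf2 was too low to judge. Csf1 (chr3:107741048-107760469, minus strand) was read in every library, at 52.1 to 126 under vehicle and 54.6 to 105 with KLA in LXR-positive cells and at 50.5 to 226 and 46.5 to 152 in DKO cells. Its KLA change was called in neither genotype (limma, adjusted p = 0.96 and 0.76). Csf3 (chr11:98701263-98703629, plus strand) gave 31 reads over all libraries, 11 of them in LXR-positive KLA libraries at 9.13, 0 and 6.07 normalized counts and 13 in DKO KLA libraries at 4.27, 0.92 and 3.67. Against 0 reads under vehicle in LXR-positive cells, the KLA level was at least 5.16-fold higher, taking a floor of 3 reads over the group, while the exact 95% interval for 11 reads against 0 starts at a ratio of 3.53. In DKO cells 13 reads against 1 gave a ratio of 18.8 (exact 95% interval 2.83 to 800). Csf2 (chr11:54247271-54249667, minus strand) had 5 reads in 5 libraries and Il23a (chr10:128296140-128298084, minus strand) 6 reads in 6 libraries, so a response of either was not detectable at this depth.

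Of the 10 members, 7 entered the KLA test by reaching 10 normalized counts in at least 3 of its 12 libraries; Il23a, Csf2 and Csf3 did not, and Il6 and Il12a did so only through their KLA libraries. In LXR-positive cells 5 were called higher and 1 lower at an adjusted p under 0.05, where 16.2% of all 15957 genes tested were called higher and 12.4% lower. In DKO cells it was again 5 higher and 1 lower, against 14.0% and 11.1% of all genes. High KLA values were thus a condition of entry for Il6 and Il12a, and among the 5 members that reached the minimum through both treatments 3 were called higher and 1 lower in each genotype. The KLA and vehicle libraries did not overlap for the 6 called members in each genotype and, among the untested ones, for Csf3 in DKO cells, at 0, 0.59 and 0 under vehicle. Of all genes tested, 21.6% lay apart upward and 18.0% downward in LXR-positive cells and 23.6% and 21.5% in DKO cells. A difference between the genotypes' responses to KLA was called for none of the 7 (limma's interaction contrast, adjusted p from 0.86 to 0.99; 0.0689% of all genes were called). The largest gap was that of Il12a, -1.77 ± 0.73 with a 95% interval of -3.35 to -0.18 (unadjusted p = 0.032, the only one of the 7 under 0.05), and it was -0.76 with a pseudocount of 8, -0.88 with quantile normalization, -2.98 with edgeR and -3.11 with DESeq2. In the authors' deposited table it was -3.13 with an adjusted p of 0.763. That of Ebi3 was 0.50 ± 0.31 (adjusted p = 0.88).

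**Figure D2:**
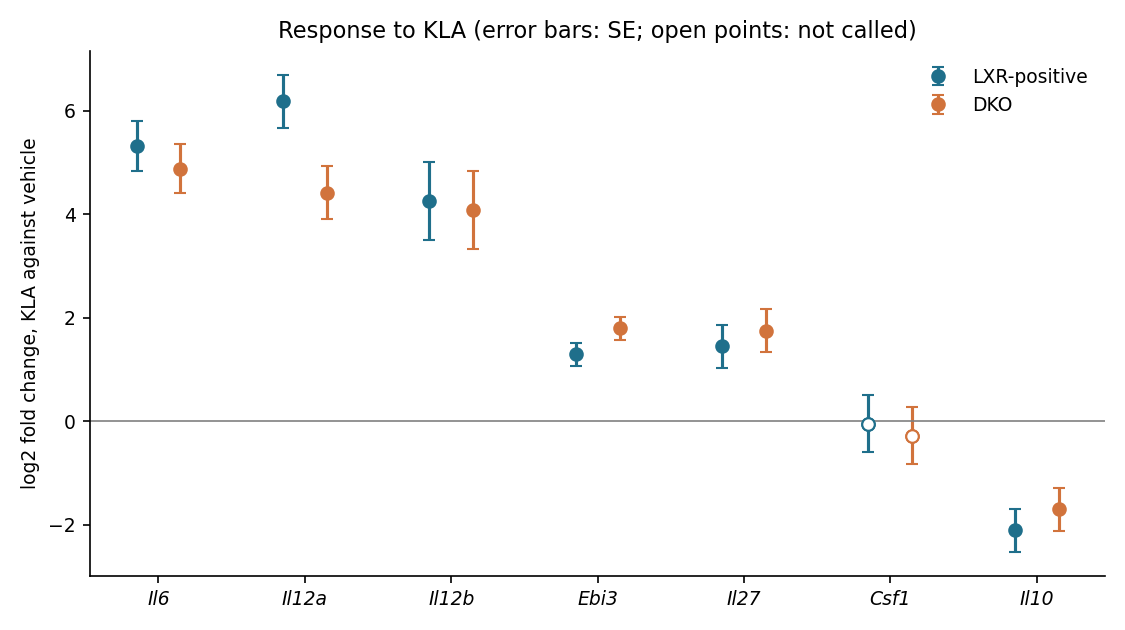
Fitted log2 fold change between KLA and vehicle for the 7 members tested, on the log2(normalized count + 1) scale, with SE, in LXR-positive and DKO cells; open points were not called. Il6, Il12a and Il12b lie between 4.09 and 6.18, Ebi3 and Il27 between 1.30 and 1.80, Csf1 near 0 and Il10 at -2.10 and -1.70.

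KLA changed the order of the members as well as their levels. On the scale of normalized counts per kilobase of exon, LXR-positive vehicle cells held Ebi3 (mean 342), then Il10 (59.4), Csf1 (15.7), Il27 (9.04) and Il12b (7.90), and the last 3 overlapped their neighbours in that order. With KLA the order was Ebi3 (842), Il12b (236), Il12a (57.6), Il6 (30.0), Il27 (22.4), Il10 (15.0) and Csf1 (14.8), in which only Ebi3 stood clear of its neighbour. In DKO cells with KLA, Ebi3 (734) was followed by Il27 (49.4), Il12b (43.9), Il12a (36.8), Csf1 (19.8), Il6 (18.6) and Il10 (15.7). There too only Ebi3 stood clear, and the others overlapped the next in line.

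The fitted level of Il12b lay lower in DKO than in LXR-positive cells under all 4 treatments, with a call under 1 of them. All 4 differences compare the same 3 DKO with the same 3 LXR-positive mice, so they are not independent results. The share of all genes with the same sign under all 4 treatments was not counted. Under GW3965 the values were 28.5, 10.7 and 23.6 in LXR-positive and 3.98, 4.79 and 5.07 in DKO cells, and the groups did not overlap, as for 15.6% of all genes downward. The difference of -1.87 ± 0.45 was the only genotype difference called among the members (limma, adjusted p = 0.026), 1 of 5 tested, where 5.44% of all genes were called lower and 9.64% in either direction. Of the genes called, 677 were higher and 876 lower, against 732 and 277 after thinning. That call rests on few reads (36 and 16 over the groups). It was lost without any filter (limma, adjusted p = 0.055), after thinning (0.15), with all 24 libraries in the fit (0.084) and with 6 libraries (0.070). It was also lost when 1 library of LXR-positive mouse 1 (0.091) or 3 (0.057) or of DKO mouse 1 (0.085) or 2 (0.080) was left out. Under vehicle the difference was -2.01 ± 0.45 without overlap but not called (limma, adjusted p = 0.12; DESeq2, 0.019), where 0.316% of all genes were called. Under KLA it was -2.17 ± 0.76 with overlap (limma, adjusted p = 0.10; DESeq2, 0.038; all 24 libraries, 0.049; without the LXR-positive KLA library of mouse 3, 0.046 with a difference of -3.03), 0 of 7 members being called against 6.87% of all genes. Under AcLDL the values were 6.38, 16.3 and 14.6 in LXR-positive and 6.89, 1.56 and 1.29 in DKO cells. The difference was -1.81 ± 0.56, with overlap through mouse 1 of each genotype (limma, adjusted p = 0.067; without the DKO library of mouse 1, 0.046; quantile normalization, 0.041), and 0 of 5 members were called against 8.6% of all genes. The vehicle libraries were fitted with the GW3965 libraries, so these 2 differences share a spread. Dendritic cells are known makers of this chain, and their 6 marker genes summed to 80.2 to 123 under vehicle in LXR-positive and 73.0 to 87.0 in DKO cells. With GW3965 these sums were 60.6 to 103.7 and 70.9 to 94.3, and the ranges of the genotypes overlapped under all 4 treatments. The neutrophil and precursor sum under vehicle was higher in DKO cells, as given above. The part of either in the Il12b difference was not tested.

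The fitted genotype differences of Il27 and Ebi3 had opposite signs, and none was called. The groups stood apart with KLA for Il27, and under vehicle and GW3965 for Ebi3. With KLA, Il27 lay higher in all 3 DKO libraries than in all LXR-positive ones, by 1.10 ± 0.42 (limma, adjusted p = 0.13; DESeq2, 0.046), where 12.9% of all genes lay apart upward. Its opposite-strand neighbour Apobr was also higher in DKO cells with KLA, by 0.96 ± 0.22 (limma, adjusted p = 0.026), and its part in the Il27 difference was not tested. Under vehicle the Il27 difference was 0.80 ± 0.51 with overlap (limma, adjusted p = 0.55). Ebi3 was lower in all 3 DKO vehicle libraries, by 0.71 ± 0.23 on the log2 scale (limma, adjusted p = 0.27), where 10.1% of all genes lay apart downward. With GW3965 it stood at 145.4 to 253.3 in DKO and 254.8 to 358.1 in LXR-positive cells, where 15.6% of all genes lay apart downward. With KLA the Ebi3 values of the genotypes overlapped, at means of 847 in DKO and 972 in LXR-positive cells. The KLA levels of Il12a differed by -0.51 ± 0.52 (limma, adjusted p = 0.59).

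**Figure D3:**
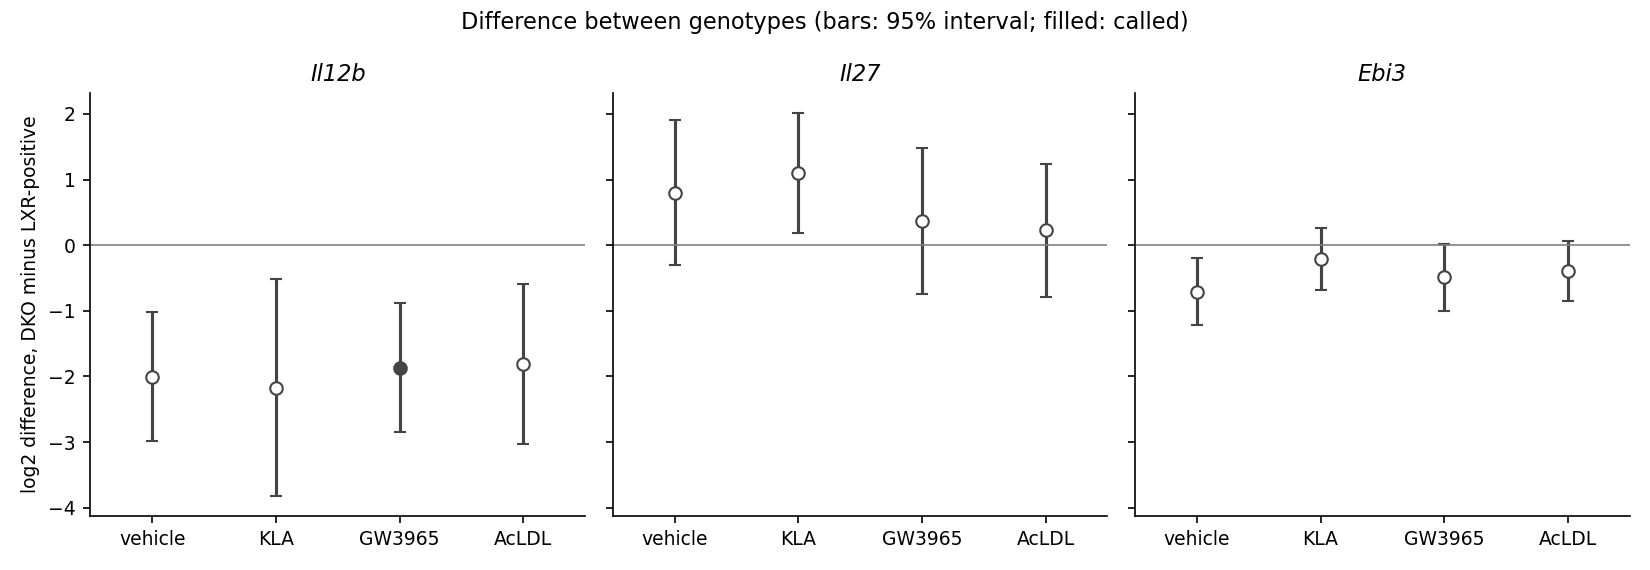
Fitted log2 difference between DKO and LXR-positive cells under each treatment, with its 95% interval, for Il12b, Il27 and Ebi3; the filled point was called. All 4 Il12b values lie between -2.17 and -1.81 with intervals below 0, while the called one is that under GW3965. The intervals are not adjusted for the number of genes tested, and the 4 treatments share the same mice.

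With GW3965 none of the 5 members tested was called in either genotype (Il10, Il12b, Il27, Ebi3 and Csf1; 0.267% and 0.00621% of all genes were called). Their fitted changes ran from -0.42 to 0.32 in LXR-positive and from -0.32 to 0.46 in DKO cells. Ebi3 gave the lowest value in LXR-positive cells, at 272.5, 254.8 and 358.1 against 324.8, 445.9 and 411.8 under vehicle. That change of -0.42 ± 0.23 had the same sign in 3 of 3 mice and did not pass (limma, adjusted p = 0.83). In DKO cells Ebi3 was also lower in 3 of 3 mice, by a fitted -0.19 ± 0.23 that was not called (limma, adjusted p = 0.96). Il10 stood at 48.1 to 75.2 in LXR-positive and 39.9 to 77.3 in DKO cells with GW3965, and Il27 at 6.10 to 14.3 and 8.79 to 14.6, ranges that overlapped those under vehicle. Il6 and Il12a stayed near the read floor, with 0 and 2 reads over the LXR-positive and 2 and 5 over the DKO GW3965 libraries.

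Ebi3 had lower values with AcLDL than with vehicle in all 6 mice, and the unblocked test did not call the change. Csf1 was also lower with AcLDL in all 6 mice, and Ebi3 was lower with GW3965 in all 6, and neither change was called. These comparisons share the vehicle libraries, and the share of all genes with the same sign in all 6 mice was not counted. In LXR-positive cells Ebi3 stood at 185.0, 173.6 and 206.0 with AcLDL, below all 3 vehicle values, where 9.3% of all genes lay apart downward. The change was -1.05 ± 0.21 (limma, adjusted p = 0.081), and with the mouse as a block it was called (adjusted p = 0.016), as it was by DESeq2 (9.9e-04). In DKO cells Ebi3 stood at 140.9, 109.9 and 189.4, and the value of mouse 3 lay just above the lowest vehicle value. The change there was -0.73 ± 0.21 (limma, adjusted p = 0.56; with the mouse block, 0.11), and the difference between the genotypes' responses was not called (0.025% of all genes were). The antisense gene Gm16712 gave fitted values of -0.61 and -0.60 for AcLDL in LXR-positive and DKO cells, neither called (limma, adjusted p = 0.33 and 0.72); its part was not tested. The other members tested with AcLDL had fitted changes closer to 0 than that of Ebi3 in LXR-positive cells. Il10 stood at 35.1 to 79.7 in LXR-positive and 46.8 to 81.8 in DKO cells, Il27 at 7.97 to 14.6 and 11.7 to 12.3, and Csf1 at 27.8 to 90.9 and 48.3 to 190.9. None of the 5 members tested passed the unblocked test in LXR-positive or DKO cells, where 0.225% and 0.125% of all genes did.

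Csf1 differed between mice, and stromal markers differed with it. Averaged over the 4 treatments, Csf1 was at 99.8, 72.5 and 49.4 normalized counts in LXR-positive mice 1, 2 and 3 and at 138, 226 and 50.0 in DKO mice. The summed stromal markers (Col1a1, Col1a2, Col3a1, Sparc, Pdgfra and Dcn) averaged 952, 283 and 153 in the LXR-positive mice and 2818, 4685 and 570 in the DKO mice. Stromal cells of marrow are known to make Csf1, and the mice stood in the same order by both measures within each genotype. In DKO mouse 3 the stromal sum was 1534 with GW3965 and 230 to 265 otherwise, while Csf1 was at 46.5 to 54.5 throughout. The part of stromal cells in the Csf1 level was not tested. The genotype difference in Csf1 was called under no treatment (limma, adjusted p from 0.32 to 0.78).

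**Figure D4:**
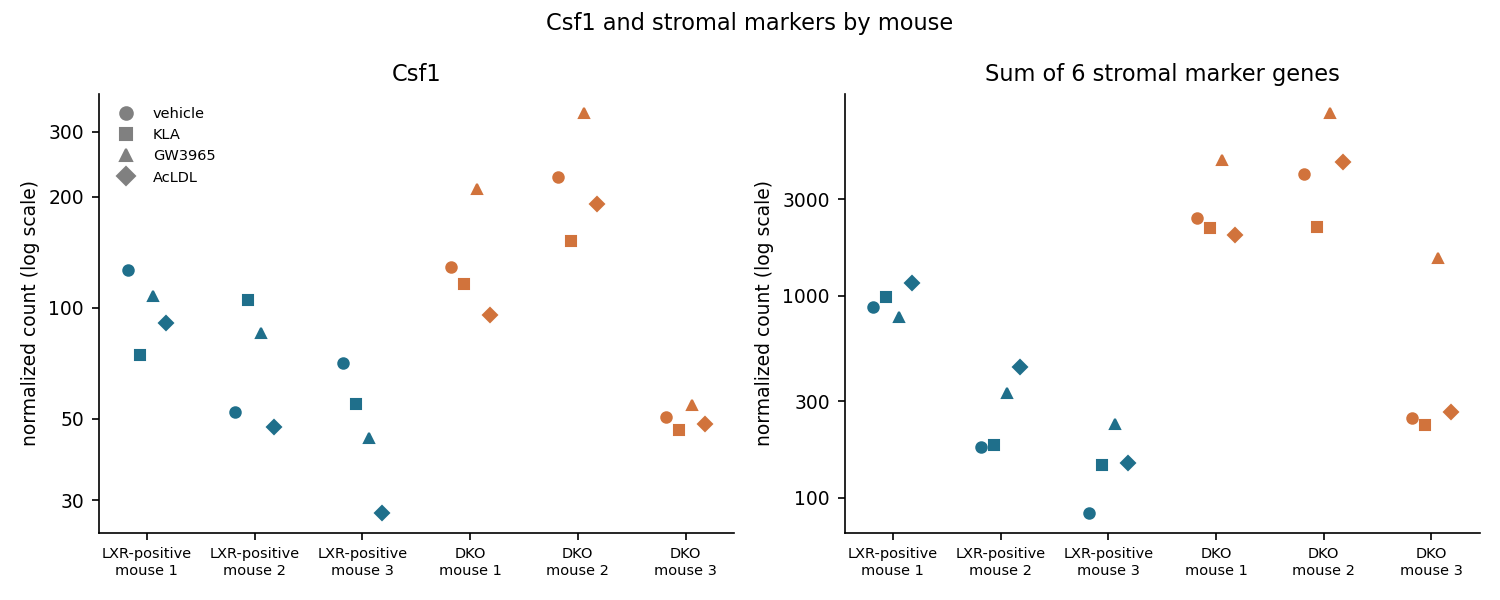
Csf1 (left) and the sum of 6 stromal marker genes (right) in each library, in normalized counts on log axes, by mouse; symbols give the treatment and colors the genotype. DKO mouse 2 is highest and mouse 3 lowest among the DKO mice in both panels.

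The receptors of these cytokines split with KLA, and did so in the same direction in both genotypes. Of 13 receptor genes tested, 5 were called higher and 5 lower in each genotype, with medians of -0.51 in LXR-positive and -0.17 in DKO cells, against -0.003 and -0.004 over all genes. Of all genes 16.2% were called higher and 12.4% lower in LXR-positive cells, and 14.0% and 11.1% in DKO cells. Il23r and Il12rb1 reached the minimum through their KLA libraries only and Il27ra through its vehicle libraries only, and without these 3 the count was 3 higher and 5 lower of 10 in each genotype. No called gene of the pathway lists changed sign with quantile normalization, edgeR, DESeq2 or thinning. Il23r, the specific chain of the IL-23 receptor, went from a mean of 2.27 ± 1.45 to 78.5 ± 23.5 normalized counts in LXR-positive cells and from 1.00 ± 1.26 to 53.8 ± 9.0 in DKO cells (SD, n = 3), log2 changes of 4.67 and 4.95 (limma, adjusted p = 3.3e-05 and 2.3e-05), while the ligand's own chain Il23a stayed at the read floor. Il12rb1, which IL-12 and IL-23 receptors share, rose by 1.74 and 2.31, and Il12rb2, the IL-12 chain, fell by 1.58 and 1.56. Il12rb2 shares 1519 exon bases with the opposite-strand gene Serbp1, so its value is uncertain. Of the IL-6 receptor, Il6st fell from 3609 ± 244 to 769 ± 278 in LXR-positive and from 3111 ± 334 to 997 ± 167 in DKO cells, and Il6ra from 2703 ± 321 to 1075 ± 170 and from 2024 ± 261 to 1080 ± 126. The IL-10 receptor chains Il10ra and Il10rb fell by 0.64 and 0.83 in LXR-positive and by 0.49 and 0.74 in DKO cells. The receptors of the colony-stimulating factors rose or were not called: Csf2rb, the shared beta chain, went from 4058 ± 796 to 8377 ± 1849 and from 3859 ± 687 to 8390 ± 538, and Csf3r rose by 0.54 and 0.81. Csf2rb2, the beta chain of the IL-3 receptor, is on the list as well and rose by 0.72 and 0.66. The Csf3r call in LXR-positive cells was lost with edgeR, after thinning and with quantile normalization, and the Csf2rb2 call in DKO cells with quantile normalization. Csf1r, Csf2ra and Il27ra were called in neither genotype.

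**Figure D5:**
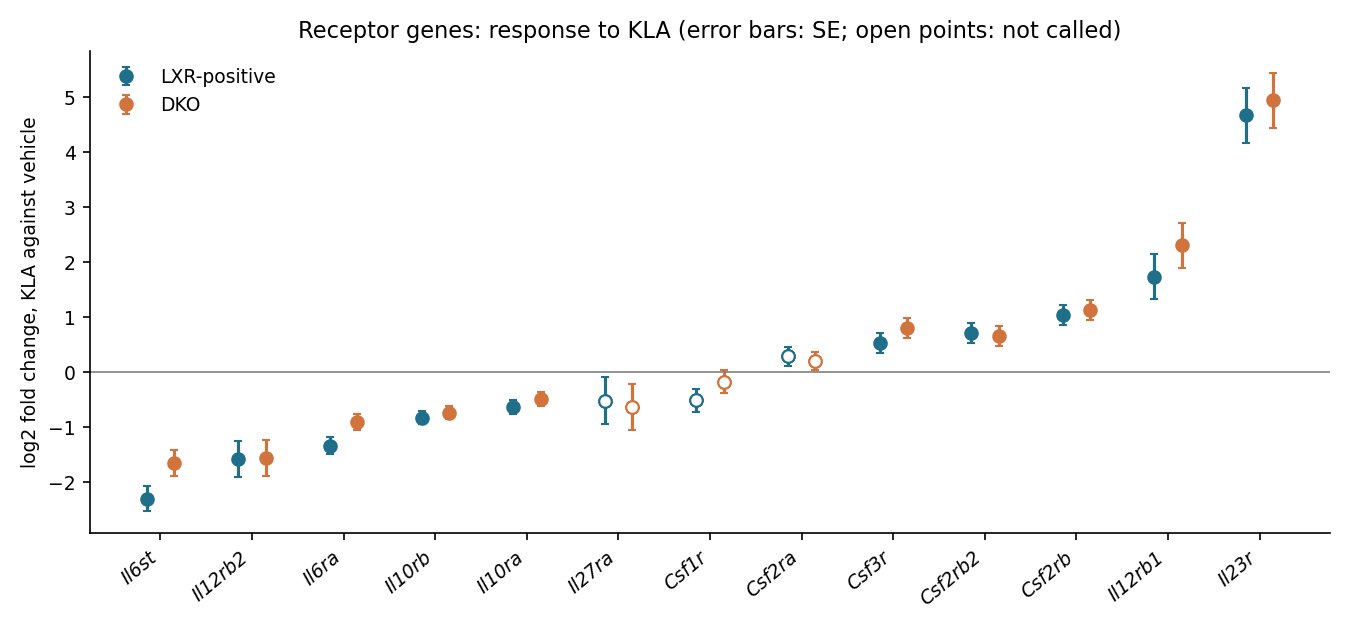
Fitted log2 fold change between KLA and vehicle of the 13 receptor genes, with SE, in LXR-positive and DKO cells, ordered by the LXR-positive value; open points were not called. Il6st, Il12rb2 and Il6ra lie lowest, and Il12rb1 and Il23r highest.

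Signalling genes downstream of the receptors rose or were not called with KLA, while regulators of the members' transcription moved both ways. Of 13 signalling genes tested, 5 were called higher and 0 lower in LXR-positive cells and 8 higher and 0 lower in DKO cells, with medians of 0.35 and 0.76, where 16.2% and 14.0% of all genes were called higher. Socs1 was tested through its KLA libraries only, and without it 4 and 7 of 12 were higher. The feedback inhibitors Socs3 and Socs1 rose by 4.19 and 3.34 in LXR-positive cells and by 4.65 and 3.82 in DKO cells, and the kinase Jak2 by 2.79 and 2.58. Jak2 was lower in DKO than in LXR-positive cells with KLA (-0.48 ± 0.11; limma, adjusted p = 0.023), a call lost after thinning and with quantile normalization. Of 13 transcription regulators, 4 were higher and 3 lower in LXR-positive and 6 higher and 2 lower in DKO cells, with medians of 0.10 and 0.61, where 16.2% and 14.0% of all genes were called higher and 12.4% and 11.1% lower. Batf, an AP-1 family factor, rose by 3.09 and 3.42 and Cebpb, a C/EBP factor, by 1.75 and 1.97. Rel, an NF-κB subunit, fell by 0.47 and 0.55. Irf8, a known activator of Il12b, fell by 0.84 and Maf, a known activator of Il10, by 0.79 in LXR-positive cells. Irf1, which activates Il12a and Il27, rose by 1.75 in DKO cells. Between genotypes with KLA, 3 of the 13 were called higher and 1 lower in DKO cells, where 6.87% of all genes were called. Irf1 and Irf8 were higher by 1.12 ± 0.21 and 0.53 ± 0.10 (limma, adjusted p = 0.015 and 0.017) and Atf3 by 0.79 ± 0.22 (adjusted p = 0.049). Irf5, an activator of Il12b, was lower, at -0.45 ± 0.12 (adjusted p = 0.045). The Irf5 call was lost after thinning and with quantile normalization, and the Atf3 call after thinning. Cebpb, Irf1 and Irf5 share 312, 135 and 411 exon bases with genes on the opposite strand. That of Irf5 is Tnpo3, which averaged 1029 normalized counts. The part of these overlaps in the values was not tested.

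Many cytokine messages are broken down through AU-rich elements of the 3′ UTR. The nonamer UUAUUUAUU was found in the longest annotated 3′ UTR of 4 members (4 copies in Csf2, 2 in Il27 and 1 each in Il12a and Il23a), where 7.65% of 21039 genes hold it. The shorter AUUUA occurred at 1.90 (Csf1) to 28.4 (Csf2) copies per kilobase of 3′ UTR, with a median of 1.24 over all genes. Of 7 genes listed as regulators of such messages, 2 were called higher and 3 lower with KLA in LXR-positive cells. In DKO cells 3 were called higher and 2 lower. The medians were 0.15 and 0.07, beside the same shares of all genes (16.2% higher and 12.4% lower, 14.0% and 11.1%). These counts and medians include Tnip1, which is known for restraining NF-κB signalling and not for message decay. Tnip1 rose from means of 1445 to 3599 in LXR-positive cells and from 1282 to 3278 in DKO cells. Zfp36, which binds AU-rich elements and speeds decay, fell by 0.97 in LXR-positive cells, and its relative Zfp36l1 by 2.16 and 1.47, though the latter shares 1672 exon bases with an opposite-strand gene. Arid5a, which stabilizes Il6 message, rose by 0.58 and 1.08, and Zc3h12a, the nuclease Regnase that cleaves Il6 message, rose by 0.83 in DKO cells. Rc3h1, the RNA-binding protein Roquin-1, fell by 0.62 and 0.55. The Arid5a call in LXR-positive cells was lost with quantile normalization and the Zc3h12a call after thinning. Of 12 related cytokine genes, Lif and Osm alone were tested, and neither was called with KLA. Il3, which lies 15.6 kb from Csf2, had 0 reads in all 24 libraries.

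Genes of most similar pattern were taken as the 3 with the highest Pearson r to a member across the 24 libraries, among 14799 genes, as a description over libraries that share mice and treatments. For Il6 they were Tma16 (r = 0.976), Gpd2 and Lmo4, for Il12a U90926 (0.976), Gm7879 and Adgb, and for Il12b Rnf14 (0.948), Slc39a7 and Naip2. For Ebi3 they were Cp (0.975), Usp25 and Vasp, for Il27 Tap2 (0.880), Smarcb1 and Nos2, and for Il10 Nlrp1c-ps (0.909), Cd300ld2 and Ms4a14. Those of Csf1 were Fkbp10 (0.878), Pdgfra (0.877) and Cnn3 (0.871), of which Pdgfra is in the stromal list.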

How the data were processed

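RNA was sequenced in 24 libraries (single-end reads of 50 bp, per the series' design text; SMARTer stranded total RNA kit with 500 ng of RNA, per the labels' protocols). The authors deposited a signal, normalized counts, as whole reads divided by 1 size factor per library; kallisto, DESeq2 and build GRCm38 are named in the submitters' processing notes, while the sources used here do not give versions, annotation or strand setting. Recovered reads were whole for 100% of values within 0.01 read, and the vehicle columns of the 3 tables were identical. Since kallisto estimates counts, the recovered reads can be rounded estimates, and the read numbers and intervals given here take them as counted. The authors' deposited log2 fold changes, p-values and Wald score belong to their test of the difference in response; 1 gene's log2 value and p-value are quoted, and the score was not used.

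The main test was limma 3.58.1 (R 4.3.3) with trend on log2(value + 1), 12 libraries per fit (vehicle and 1 treatment in both genotypes, 4 group means), over genes with 10 or more normalized counts in at least 3 libraries. P-values were adjusted by Benjamini-Hochberg over all genes tested, and a gene was called under 0.05. The script was tested on simulated data. Alternatives were a pseudocount of 8, no filter, quantile normalization, edgeR 4.0.16 and DESeq2 1.42.0 on recovered reads, thinning to 6448579 reads, other sets of libraries, leaving out each library, and a block. The design text gives 6 mice with 4 treatments, so same-numbered libraries of a genotype come from 1 mouse; the median r between their deviations from group means was 0.265 (36 pairs, -0.005 to 0.506, 35 over 0.1). Separate mice are the replicates. Promoters are from RefSeq (GRCm38.p6), and exon lengths, overlaps and UTRs from GENCODE M21 on GRCm38, whose coordinates equal the deposited ones for 8 of the 10 members (not Il23a and Ebi3). Intervals of read ratios cover counting error only; PCR duplicates are not marked.

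The members, the 5 pathway lists and the 7 marker lists were chosen with earlier results of these data known. By the rule for named genes, all 10 members and all receptors are named, called genes of the pathway lists may be, and the 3 genes of most like pattern are given for each member with enough counts. Marker genes, opposite-strand neighbours and genes of the label check are named beside the results they touch. The summed level of the B-cell list is not reported here.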

Additional observations from a re-analysis of the deposited data

How the results depend on the processing

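Over the 26 named member differences, 521 recomputed values kept their direction and side of the threshold, 13 lost and 9 gained the call, and none changed sign. The number of members called was 0 for the genotype difference under KLA, and 2 by DESeq2, 1 with all 24 libraries, and 0 to 1 when 1 library was left out. Under GW3965 it was 1, and 0 with no filter, 0 after thinning, 0 with all 24 libraries, 0 with the 6 libraries compared, and 0 to 1 when 1 library was left out. Under vehicle it was 0, and 1 by DESeq2. For AcLDL in LXR-positive cells it was 0, and 1 by DESeq2 and 1 with the replicate block by mouse, which changed no other member's call; the block by number across genotypes changed none. Of the 31 pathway genes called with KLA in DKO cells, Irf5 and Tyk2 lost the call with the mouse block. For the genotype difference under AcLDL it was 0, and 1 with quantile normalization and 0 to 1 when 1 library was left out. Of these changes the cause was not tested. Another 47 member values, none called, gave the other sign in 68 of 968 recomputations, and 0 passed. With a pseudocount of 8, 1 of the 3 genes most like Il6 and 1 of the 3 most like Il12a remained.

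Counts over all genes moved more. Genotype calls under vehicle were 51 and ran from 10 to 300 by setting (20 to 90 leaving out 1 library), with 76.5% of them higher and 45.3% by DESeq2. Those under KLA were 1097 (276 to 1852; 127 to 1195 leaving out 1 library), under GW3965 1553 (889 to 2182; 458 to 1709) and under AcLDL 1379 (831 to 1860; 116 to 1633). Thinning turned the genotype calls under AcLDL from 602 higher and 777 lower to 639 and 192, and those under KLA from 480 and 617 to 381 and 234. It moved the median of all genes by 0.134 under GW3965 and 0.129 under AcLDL, so that the Il12b differences after thinning are read against that shift. Calls for AcLDL were 36 in LXR-positive (20 to 285; 10 to 56 leaving out 1 library) and 20 in DKO cells (15 to 82; 10% of them higher, and 39.0% by DESeq2), for GW3965 43 (29 to 87) and 1 (0 to 26), and for the response differences to KLA, GW3965 and AcLDL 11 (10 to 49; 5 to 30 leaving out 1 library; 0% higher, and 22.45% by DESeq2), 19 (16 to 55) and 4 (4 to 13). Depth limits Il23a, Csf2 and Csf3, with 6, 5 and 31 reads in all.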
